A study of Homo sapiens with 36 samples.

Results

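The genes described here are 47 genes of ribosome biogenesis and of RNA polymerase I, followed in HCT-116, a human colorectal carcinoma cell line. They were listed by name for their role, with earlier results of these data known, and all 47 were found among the 62757 genes listed. They comprise 5 subunits of RNA polymerase I, 6 initiation factors, 4 nucleolar phosphoproteins and regulators, 6 proteins of the snoRNPs (the small nucleolar RNA-protein particles), 17 factors of the small subunit pathway and 9 of the large subunit pathway. Genes were tested if the raw counts of any group averaged 64 or more, which left 12356 genes, among them 46 of the 47. The exception was NOP2, an rRNA methyltransferase of the large subunit pathway, with a mean of 16.4 counts. In the annotation, 96.2% of the exon bases of NOP2 also lie in exons of another gene on the same strand, so that reads from NOP2 cannot be assigned, and its low count is not a level.

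RNA-seq of polyA RNA was performed on WT cells and on FBXW7-/- cells (KO), which come from a commercial knockout line. FBXW7 is a substrate receptor of an SCF-type ubiquitin ligase. KO cells carried the control esiRNA (esiCT), the esiRNA against HDAC4 (esiHDAC4), or esiCT together with #11, a degrader of class IIa HDACs, for 48 h. Each was left untreated or received oxaliplatin (OXPT), a platinum drug that damages DNA, at 50 µM for the last 24 h. These 6 KO groups and the groups WT untreated and WT OXPT hold 3 libraries each, 24 in all. For WT, the title of the libraries names the control esiRNA but the treatment entry names esiHDAC4, so their esiRNA is not settled. The labels give #11 at 1 µM in the treatment entry and at 10 µM in the description. The KO cells are a single line, and no label says that the 3 libraries of a group came from separate cultures, so p-values measure the spread between these libraries, which may be technical.

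A ribosome starts in the nucleolus, where RNA polymerase I transcribes the rDNA repeats into a long precursor. UBTF and the promoter factor SL1 (TBP with TAF1A to TAF1D) bind the rDNA promoter, and RRN3 brings the polymerase to it. Box C/D snoRNPs, built on fibrillarin (FBL), NOP56 and NOP58, methylate the precursor, and box H/ACA snoRNPs, built on dyskerin (DKC1), NHP2 and GAR1, convert uridines to pseudouridine. The small subunit processome and the PES1-BOP1-WDR12 complex then guide cleavage and folding into the subunits. Some platinum drugs, oxaliplatin among them, are known to disturb the nucleolus. The libraries were made from polyA RNA, so the rRNA precursor itself was not measured, and values are shares of each library's reads, in which fewer cells expressing a gene and less of its RNA per cell cannot be told apart.

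Sequence at the start sites of these genes is shown first, because a 6-letter sequence, CACGTG (the E-box that MYC and related factors can bind), was common to many of them. Promoter windows of 300 bases, 250 before and 50 after the start site, were taken from RefSeq (GRCh38.p14) and were present for 41 of the 47 genes, 9 of which had 2 windows. CACGTG lay in the window of 16 of the 41 (39%), and in 12.8% of the 9475 tested genes with a window, 8.77% of all 27305 genes with a window and 29.8% of 84 other genes of the same pathways. In 15 of the 16 genes a copy lay within 50 bases of the start. Of these 16 genes, 10 belong to the small subunit pathway, 3 to the large subunit pathway, 2 to the snoRNPs and 1 to the regulators, whereas none of the polymerase I subunits or initiation factors with a window had it. The sequences below are 30 bases around CACGTG (in capitals), 5′ to 3′ on the strand of the gene, for the 5 genes whose mean OXPT response was farthest from zero among the 15 tested genes that had it.
UTP20: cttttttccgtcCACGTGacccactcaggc
BYSL: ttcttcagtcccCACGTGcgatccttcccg
WDR43: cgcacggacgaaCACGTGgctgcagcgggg
PES1: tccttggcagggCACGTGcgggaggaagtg
MYBBP1A: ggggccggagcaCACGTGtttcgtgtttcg
These stretches lie at chr12:101280083-101280112 (plus strand), chr6:41921515-41921544 (plus), chr2:28894658-28894687 (plus), chr22:30591880-30591909 (minus) and chr17:4555340-4555369 (minus). The first letter of CACGTG stood 10 bases before the start of UTP20 and at bases 29, 4, 14 and 28 after the start of BYSL, WDR43, PES1 and MYBBP1A.

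Other letters searched on both strands gave a similar picture for CCGGAAG, the core bound by ETS factors. It was in 18 of 41 windows (43.9%), 23.1% of tested genes, 12.2% of all genes and 40.5% of the 84 other pathway genes. The 10-letter NRF1 palindrome was in 12.2% of the windows against 2.78% of tested genes and 2.38% of the other pathway genes. A second 10-letter palindrome was in 2.44% against 1.07% and 2.38%, and TATAAA in 4.88% against 7.67% and 5.95%. The 15 tested genes with CACGTG had a median mean response to OXPT of 0.23 on the log2 scale (-0.81 to 0.72), and the 25 without it 0.10 (-0.40 to 0.74). The ranges overlap, and the 5 genes printed above include the lowest mean response of the list (UTP20). No test was run on these shares or medians.

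Library depth ranged from 10725966 to 20527222 counts on genes (median 14510758), with 7.74% to 22.3% of reads unmapped; KO esiCT OXPT replicate 3 had the fewest counts and the highest unmapped share. The libraries showed the epithelial genes EPCAM (215 to 360 CPM, counts scaled to a common library size by TMM) and KRT18, and CDX2, whereas VIL1 and CDX1 were nearly absent; PTPRC, CD3E and PECAM1 stayed under 1 CPM, and COL1A1 lay between 25.1 and 77.6. CDKN1A, a p53 target, lay between 288 and 1220 CPM without OXPT and between 2510 and 4820 with it. The value of 1220 belongs to WT untreated replicate 3, and the other untreated libraries reached at most 519. MDM2, another p53 target, overlapped, with 44 to 100 CPM without OXPT and 54.5 to 538 with it. The value of 54.5 is that of WT OXPT replicate 3, beside 366 and 353 in the other WT OXPT libraries and 57.3, 91.5 and 67.9 in WT untreated. HDAC4 measured 18.4, 14 and 24.9 CPM in untreated KO esiCT and 8.94, 8.8 and 14.9 in KO esiHDAC4, and with OXPT 6.28, 5.71 and 7.5 against 4.13, 3.33 and 4.19, so the groups overlapped without OXPT and did not with it. FBXW7 reads were found in KO cells (13.9 to 55.1 CPM) as in WT cells (13.5 to 42.3), and gene counts do not show the knockout.

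Together the 47 genes took 0.559% to 1.02% of the counts of a library (median 0.809%). The share was 0.820% ± 0.114 (SD, n = 3) in untreated KO esiCT cells and 0.765% ± 0.186 with OXPT, and 0.820% ± 0.142 in WT untreated cells and 0.809% ± 0.059 in WT OXPT cells. The lowest mean shares were those of the groups with #11, 0.749% ± 0.0750 untreated and 0.712% ± 0.0714 with OXPT. The ranges with #11 overlapped those of esiCT in the same state (0.706% to 0.934% untreated and 0.559% to 0.921% with OXPT).

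Per kilobase of canonical mRNA, the nucleolar chaperone NPM1 was the highest in untreated KO esiCT cells, at 1220 ± 135 CPM per kb (SD, n = 3), ahead of the rRNA methyltransferase FBL at 500 ± 11.0 and of nucleolin (NCL) at 326 ± 55.3. These 3 did not overlap with each other or with the next, POLR1D at 201 ± 20.3, a subunit that RNA polymerases I and III share; POLR1D and NOP56 (200 ± 39.4) did overlap. The subunits of the polymerase were far apart. POLR1C, also shared with RNA polymerase III, stood at 37.3 ± 2.59 and POLR1E at 33.2 ± 5.97, whereas the largest subunits, which form the catalytic centre, stood at 7.21 ± 2.88 (POLR1B) and 5.28 ± 0.294 (POLR1A). UBTF measured 28.9 ± 2.68, RRN3 12.9 ± 4.68 and TAF1A 5.13 ± 1.90. HEATR1 (3.94 ± 2.50) and UTP20 (2.01 ± 1.51), both very long proteins of the small subunit processome, were the lowest of the 46, and ranged from 1.26 to 6.21 and from 0.307 to 3.21. POLR1A, TAF1A and HEATR1 overlapped and cannot be ordered. Of the exon bases of HEATR1, 24.8% also lie in exons of other genes. Reads there are ambiguous and not counted, so its level may be too low. Levels per kilobase also rest on the length of 1 annotated mRNA per gene, 12480 nt for POLR1A and 693 nt for POLR1D. Before division by length these measured 65.9 and 139 CPM.

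**Figure D1:**
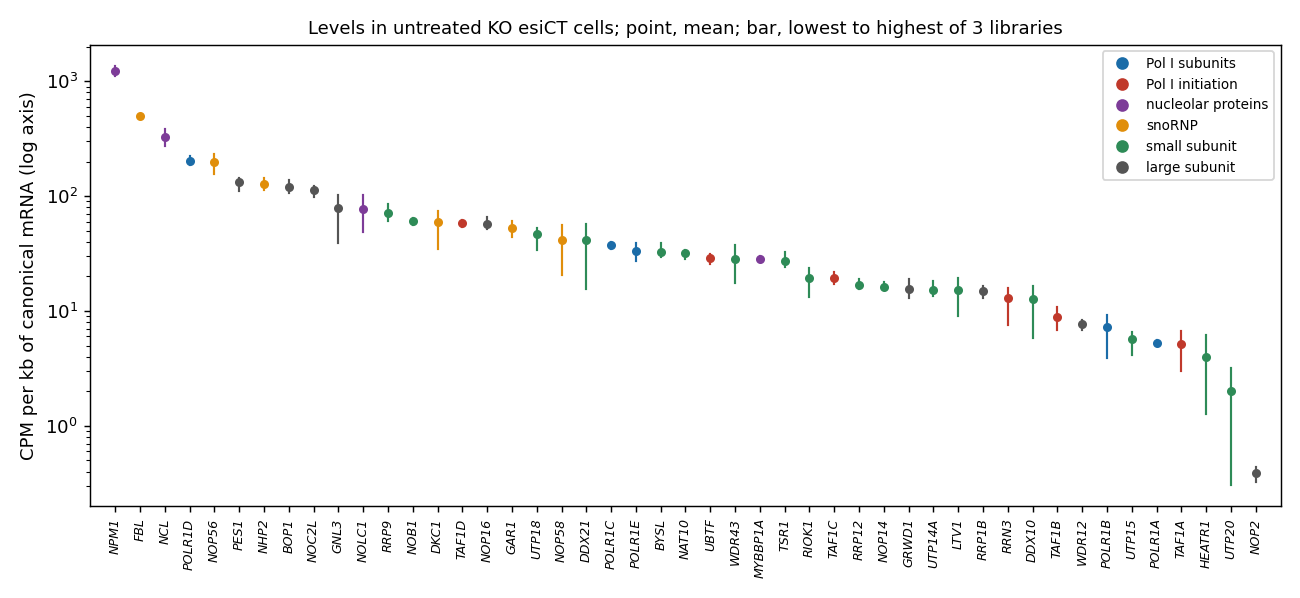
Level of each of the 47 genes in untreated KO esiCT cells, in CPM per kilobase of canonical mRNA on a log axis, ordered from high to low and coloured by role. Points are means and bars run from the lowest to the highest of 3 libraries; NPM1 stands at 1220, POLR1A at 5.28 and UTP20 at 2.01, and the long bars belong to genes such as DDX21 (15.7 to 57.7) and HEATR1 (1.26 to 6.21).

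The first question was how OXPT changed these genes in each cell state. A gene was called when its adjusted p (edgeR quasi-likelihood F test, Benjamini-Hochberg over 12356 genes) was under 0.05 and its fold change over 1.5. In KO esiCT cells 1 of the 46 genes rose (POLR1C) and none fell, against a background of 6.23% of all genes tested called higher and 5.08% lower. In WT cells 1 rose (BYSL) and 1 fell (BOP1), with a background of 5.1% and 5.6%. In KO esiHDAC4 cells 3 rose (POLR1C, BYSL and RRP12) and none fell, with 6.44% and 5.54%. With #11, 2 rose (POLR1C and BYSL) and none fell, with 5.94% and 3.57%. The called shares of the 46 genes in either direction were thus 2.17%, 4.35%, 6.52% and 4.35%, each below the sum of the corresponding backgrounds. The median log2 fold change over the 46 genes was 0.15 in KO esiCT, 0.11 in WT, 0.25 in KO esiHDAC4 and 0.13 with #11, beside 0.01, -0.06, 0.02 and 0.00 over all genes tested. Over the treated replicates these medians had SDs of 0.41, 0.16, 0.19 and 0.20, so each but that of KO esiHDAC4 is smaller than its own spread. In all 4 responses 18 genes had values above zero and 9 below zero, and 19 were mixed; 4 genes were called in at least 1 response and none in all 4. The 4 responses share no library, since each has its own untreated group.

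**Figure D2:**
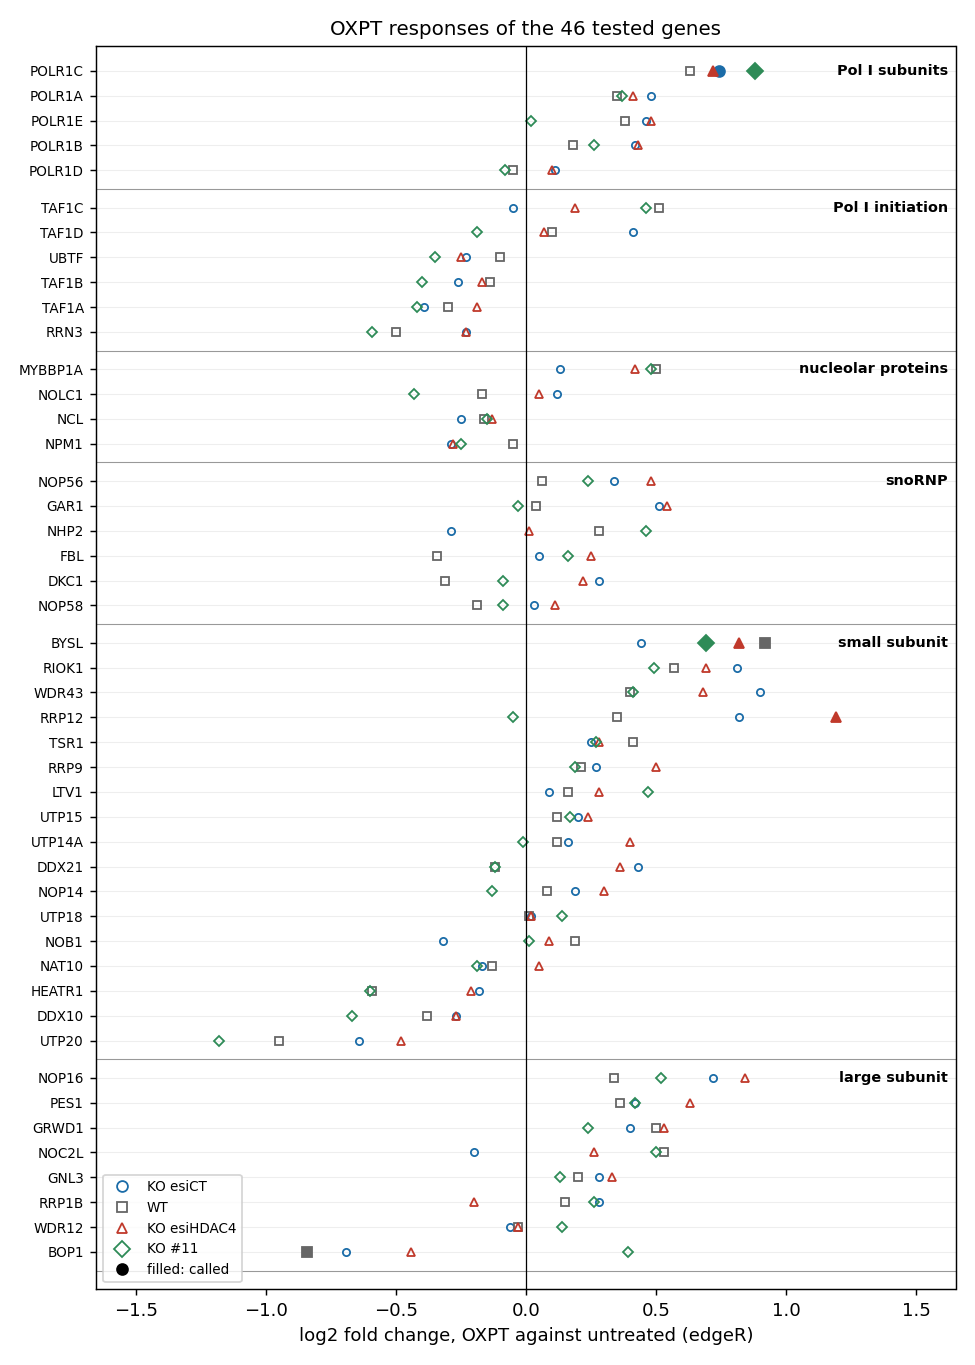
Log2 fold changes of the 46 tested genes with OXPT against untreated in KO esiCT, WT, KO esiHDAC4 and KO #11 cells, grouped by role and ordered by mean response; filled symbols are called genes. POLR1C lies between 0.63 and 0.88 in the 4 responses, UTP20 between -1.18 and -0.48, and the highest value is that of RRP12 in KO esiHDAC4 (1.19).

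Among the polymerase subunits, POLR1C (chr6:43509702-43562419, plus strand, GRCh38, GENCODE 44) had the highest fold changes. In KO esiCT cells it measured 50.5, 48.1 and 44 CPM untreated and 61.1, 72.6 and 105 with OXPT, and the groups did not overlap. The log2 fold change was 0.74 ± 0.21 (SE, n = 3 per group, adjusted p = 0.0288 in edgeR). In KO esiHDAC4 cells it measured 45.9, 47 and 41.6 CPM against 53.8, 75.9 and 91.8, again without overlap, a log2 fold change of 0.72 ± 0.21 (edgeR adjusted p = 0.0324). With #11 it measured 38.8, 43.4 and 38.7 CPM against 84.5, 76.9 and 61.3, a log2 fold change of 0.88 ± 0.22 (edgeR adjusted p = 0.0121). In WT cells 53.3, 40.8 and 63.7 CPM stood against 80.4, 75.4 and 87.9; the groups did not overlap there either, but the log2 fold change of 0.63 ± 0.21 did not pass (edgeR adjusted p = 0.0646), and with replicate numbers as a block it did (0.63, adjusted p = 0.0479). Thus every OXPT library lay above the untreated libraries of its own group in all 4 cell states.

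The calls of POLR1C changed in several fits that left out 1 library. In KO esiCT the call was lost without OXPT replicate 2 or 3 or untreated replicate 1, 2 or 3 (log2 fold change 0.49 to 0.78, edgeR adjusted p 0.0517 to 0.187), and in KO esiHDAC4 without OXPT replicate 2 or 3, any untreated replicate or #11 untreated replicate 2 (0.52 to 0.75, 0.0556 to 0.191). With #11 it was lost without untreated replicate 1 (0.83, 0.0623) or OXPT replicate 1 (0.76, 0.0845), and in WT it appeared without WT untreated replicate 3, KO esiCT OXPT replicate 3 or KO esiHDAC4 OXPT replicate 1 or 3 (0.63 to 0.80, 0.0236 to 0.0497). An antisense gene overlaps 9.96% of the exon bases of POLR1C, and counts of the reverse strand gave 0.35 in KO esiCT (adjusted p = 0.173), 0.41 in KO esiHDAC4 (adjusted p = 0.106) and 0.62 with #11 (adjusted p = 0.0156); as the reads carry no strand, reads of the overlap cannot be told apart. Without replicate number 3 in every group, a setting chosen after seeing the data, POLR1C stood at 0.44 in KO esiCT (edgeR adjusted p = 0.123), 0.49 in KO esiHDAC4 (adjusted p = 0.0892), 0.74 in WT (adjusted p = 0.0128) and 0.92 with #11 (adjusted p = 0.00361). With the replicate block and an offset for GC content and mRNA length, also chosen after seeing the data, POLR1C stayed called with #11 (0.80) and stood at 0.50 in KO esiCT and 0.47 in KO esiHDAC4, under the 1.5-fold limit. With no count filter none of its calls was kept (0.65, 0.68 and 0.88 in KO esiCT, KO esiHDAC4 and with #11, edgeR adjusted p = 0.234, 0.208 and 0.058).

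The other subunits were not called. POLR1A, the largest subunit, had log2 fold changes of 0.48 ± 0.18 in KO esiCT (edgeR adjusted p = 0.0973), 0.35 in WT, 0.41 in KO esiHDAC4 and 0.37 with #11. In KO esiCT it measured 62.8, 65 and 70 CPM untreated and 93.5, 105 and 76.8 with OXPT, so the groups did not overlap. POLR1E had 0.46, 0.38, 0.48 and 0.02 in the same order, POLR1B 0.42, 0.18, 0.43 and 0.26 with an SE of 0.58 each, and POLR1D, shared with polymerase III as POLR1C is, 0.11, -0.05, 0.10 and -0.08. With the replicate block and the offset for GC content and mRNA length, POLR1A was called in KO esiCT (0.61, edgeR adjusted p = 0.00949), in KO esiHDAC4 (0.62, adjusted p = 0.00894) and with #11 (0.59, adjusted p = 0.0151). The same setting called POLR1B in KO esiCT (0.65, adjusted p = 0.033) and in KO esiHDAC4 (0.76, adjusted p = 0.0129), and leaving out number 3 called POLR1A in KO esiCT (0.64, adjusted p = 0.00898). All 5 subunits lay above zero in KO esiCT and in KO esiHDAC4, and 4 of 5 in WT and with #11.

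Of the 6 initiation factors none was called in any response, and most lay below zero. RRN3 had log2 fold changes of -0.23 in KO esiCT, -0.50 in WT, -0.23 in KO esiHDAC4 and -0.59 with #11, each with an SE of 0.58. UBTF had -0.23, -0.10, -0.25 and -0.35 (SE 0.24), TAF1A -0.39, -0.30, -0.19 and -0.42, and TAF1B -0.26, -0.14, -0.17 and -0.40. TAF1C (-0.05, 0.51, 0.19 and 0.46) and TAF1D (0.41, 0.10, 0.07 and -0.19), the other SL1 subunits, did not keep a sign. With #11, RRN3 measured 44.9, 40.5 and 56.5 CPM untreated and 30, 28.8 and 35.2 with OXPT, groups that did not overlap, and it was called lower when only these groups were fitted (-0.59, edgeR adjusted p = 0.0315). Without number 3, TAF1A was called lower with #11 (-0.68, adjusted p = 0.0427). The smallest edgeR adjusted p of the 6 factors over the 4 responses was 0.117, that of TAF1D in KO esiCT.

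No nucleolar phosphoprotein or regulator was called. NPM1, a histone and ribosome chaperone, measured 1470, 1810 and 1540 CPM in untreated KO esiCT and 1270, 1440 and 1230 with OXPT, a log2 fold change of -0.29 ± 0.18 (edgeR adjusted p = 0.331), and -0.28 to -0.05 in the other responses; the KO esiCT groups did not overlap. NCL had -0.25 ± 0.25 in KO esiCT and -0.16 to -0.13 elsewhere. MYBBP1A, a repressor of rRNA transcription that leaves the nucleolus under stress, had 0.13, 0.50, 0.42 and 0.48, and NOLC1, a chaperone of snoRNPs, 0.12, -0.17, 0.05 and -0.43. Among the snoRNP proteins FBL had 0.05, -0.34, 0.25 and 0.16 and DKC1 0.28, -0.31, 0.22 and -0.09. None of these 10 genes was called, and WT untreated replicate 3, with 1180 CPM of FBL against 681 and 465 in the other WT untreated libraries, had the largest value of the 24 libraries for that gene. With the replicate block and the offset for GC content and mRNA length, FBL was called lower in WT (-0.61, edgeR adjusted p = 0.00159) and NHP2 lower in KO esiCT (-0.72, adjusted p = 0.0302).

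In the small subunit pathway, BYSL (bystin, needed for late steps of the small subunit; chr6:41921499-41933046, plus strand) rose in 3 of 4 responses. In WT cells it measured 61, 56.3 and 50.3 CPM untreated and 83, 101 and 134 with OXPT, a log2 fold change of 0.92 ± 0.21 (edgeR adjusted p = 0.00633). In KO esiHDAC4 cells 52.3, 62.1 and 50.6 stood against 80, 109 and 103 (0.82 ± 0.21, edgeR adjusted p = 0.0126), and with #11 52.4, 56.8 and 37.8 against 82.4, 91.5 and 63.7 (0.69 ± 0.21, edgeR adjusted p = 0.0391). In KO esiCT cells 51.2, 67.1 and 50.3 stood against 75.3, 86.9 and 66.3; these overlapped, and the log2 fold change of 0.44 ± 0.21 did not pass (edgeR adjusted p = 0.184). With the replicate block and an offset for GC content and mRNA length, chosen after seeing the data, BYSL was not called, at 0.56 in WT (adjusted p = 0.01, under the 1.5-fold limit), 0.45 in KO esiHDAC4 and 0.41 with #11. With no count filter it stayed called in WT (0.87, adjusted p = 0.0434) but not in KO esiHDAC4 (0.78, adjusted p = 0.0928) or with #11 (0.68, adjusted p = 0.216). The interaction of genotype and OXPT was not called for any gene, so BYSL is not shown to respond differently in WT and KO cells.

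In WT the call of BYSL was lost only without WT OXPT replicate 3, among the 24 libraries left out in turn (0.72, edgeR adjusted p = 0.0523). In KO esiHDAC4 it was lost without OXPT replicate 2 or 3 or untreated replicate 1 or 3 (0.73 to 0.77, edgeR adjusted p 0.0515 to 0.0793). With #11 it was lost without 14 of the 24 libraries, namely untreated replicates 1, 2 and 3 and OXPT replicates 1 and 2 with #11, KO esiCT OXPT 1 and 2 and untreated 1, KO esiHDAC4 OXPT 2 and 3 and untreated 1, 2 and 3, and WT OXPT 2 (0.51 to 0.80, edgeR adjusted p 0.0505 to 0.215).

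RRP12, a factor of subunit export (chr10:97356358-97426076, minus strand), rose in KO esiHDAC4 cells, from 68.4, 71.5 and 58.2 CPM to 104, 179 and 170, with a log2 fold change of 1.19 ± 0.38 (edgeR adjusted p = 0.0425), the highest of any of the 46 genes in the 4 responses. In KO esiCT cells 67.9, 84.1 and 71.8 stood against 107, 170 and 118, again without overlap (0.82 ± 0.37, edgeR adjusted p = 0.167). In WT cells 95.3, 76.9 and 268 stood against 137, 173 and 252 (0.35 ± 0.37); the value of 268 is that of untreated replicate 3, and without this library RRP12 was called (1.13, edgeR adjusted p = 0.0199). With #11 the log2 fold change was -0.05 ± 0.37, from 141, 119 and 80.8 CPM to 118, 138 and 73.9. The call in KO esiHDAC4 was lost without its OXPT replicate 2 or 3 or its untreated replicate 1, 2 or 3. Leaving out KO esiCT untreated 1, 2 or 3, #11 untreated 1 or 2, #11 OXPT 1 or WT OXPT 2 also lost it. These fits gave 1.05 to 1.25 (edgeR adjusted p 0.0501 to 0.152). The call was also lost with a mean of 64 in every group (1.13, adjusted p = 0.0635) and with reverse-strand counts (1.12, adjusted p = 0.0514). Without number 3 in any group, a setting chosen after seeing the data, RRP12 was called in 3 responses. These were KO esiCT (0.87, adjusted p = 0.0325), WT (0.86, adjusted p = 0.0288) and KO esiHDAC4 (1.02, adjusted p = 0.0135).

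BOP1, which with PES1 and WDR12 forms the complex that processes the large subunit precursor (chr8:144262045-144291438, minus strand), fell in WT cells. It measured 347, 305 and 283 CPM untreated and 156, 133 and 232 with OXPT, a log2 fold change of -0.84 ± 0.26 (edgeR adjusted p = 0.0436). In KO esiCT cells 278, 336 and 258 stood against 161, 141 and 238, without overlap (-0.69 ± 0.26, edgeR adjusted p = 0.0951), and in KO esiHDAC4 cells 222, 265 and 222 against 131, 133 and 257 (-0.44 ± 0.26, edgeR adjusted p = 0.304). With #11 the value had the opposite sign, 0.39, from 238, 206 and 157 CPM to 280, 279 and 228. The interaction of #11 and OXPT for BOP1 was 1.08 ± 0.37 on the log2 scale, but did not pass (unadjusted p = 0.00862, edgeR adjusted p = 0.489).

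In each esiRNA and WT group with OXPT, replicate 3 was the highest for BOP1. Without replicate number 3 in any group, a setting chosen after seeing the data, BOP1 was called in WT (-1.16, edgeR adjusted p = 0.000185), KO esiCT (-1.02, adjusted p = 0.000579) and KO esiHDAC4 (-0.88, adjusted p = 0.00154), and so was the interaction with #11 (1.30 ± 0.22, adjusted p = 0.00993). The WT call was lost without WT OXPT 1 or 2, WT untreated 1 or 2, KO esiCT OXPT 1, KO esiCT untreated 1 or 2, KO esiHDAC4 untreated 2 or 3, #11 untreated 1 or #11 OXPT 1 or 2 (-0.87 to -0.67, edgeR adjusted p 0.0504 to 0.169). Without OXPT replicate 3 of its own group BOP1 was called in KO esiCT (-0.95, adjusted p = 0.0441) and in KO esiHDAC4 (-0.85, adjusted p = 0.0493). The replicate block with the offset for GC content and mRNA length, also chosen after seeing the data, called BOP1 lower in 3 responses. These were WT (-1.13, edgeR adjusted p = 0.000469), KO esiCT (-0.87, adjusted p = 0.00362) and KO esiHDAC4 (-0.80, adjusted p = 0.00678). When only the WT groups were fitted, the WT call was lost (-0.93, edgeR adjusted p = 0.17).

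**Figure D3:**
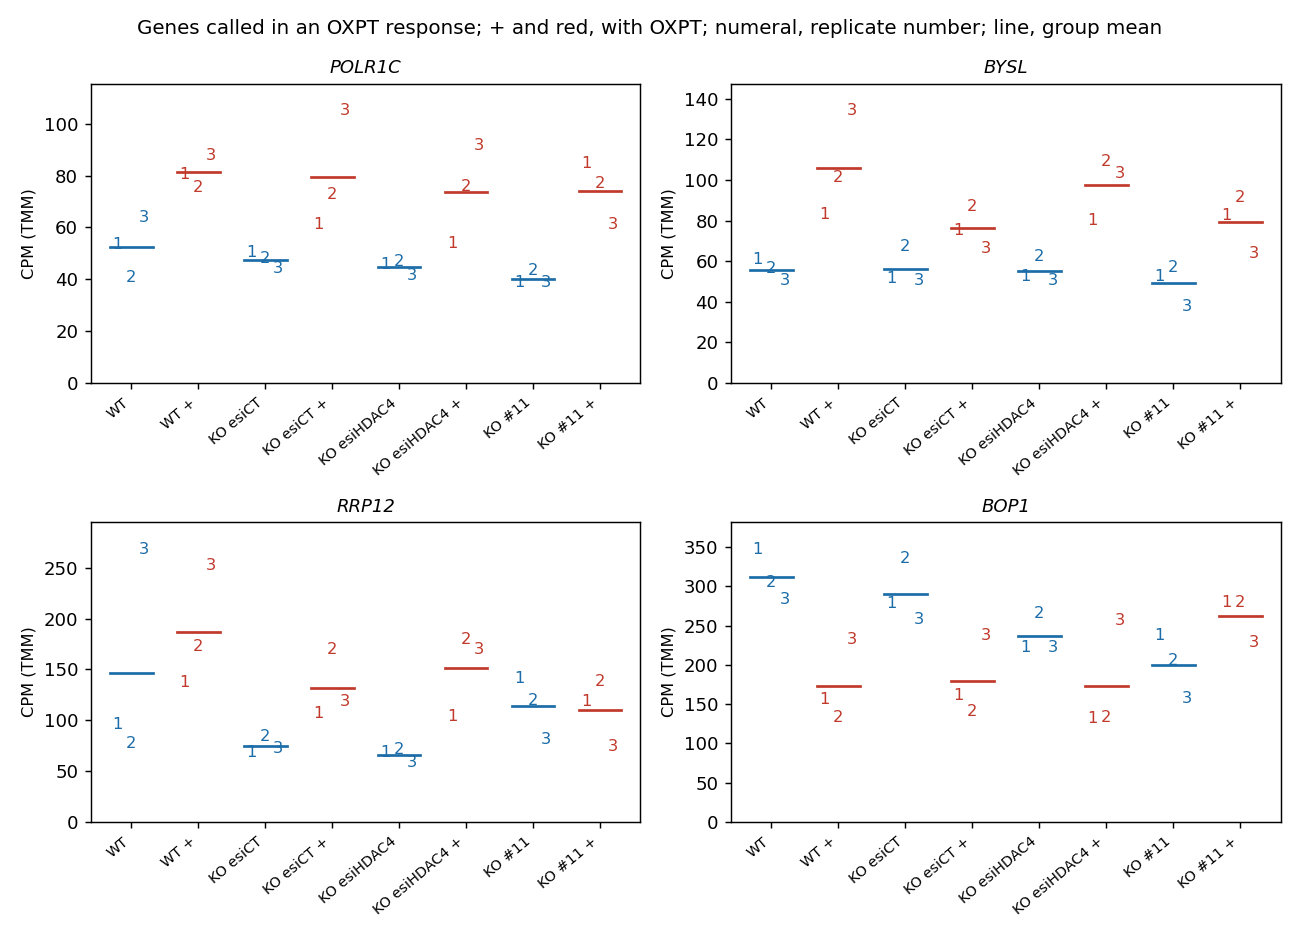
CPM (TMM) of POLR1C, BYSL, RRP12 and BOP1 in the 24 libraries, by group; red groups marked + received OXPT, numerals are replicate numbers at their values and lines are group means of 3. POLR1C stands above its untreated group in every OXPT library, and replicate 3 of WT, KO esiCT and KO esiHDAC4 with OXPT is the highest of its group for BOP1 (232, 238 and 257).

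The partners of BOP1 were not called. PES1 had log2 fold changes of 0.42 in KO esiCT, 0.36 in WT, 0.63 in KO esiHDAC4 and 0.42 with #11, none of them called, and WDR12 lay between -0.06 and 0.14. Of the other large subunit factors, NOP16 had 0.72 (edgeR adjusted p = 0.138), 0.34, 0.84 (adjusted p = 0.0831) and 0.52, and GRWD1, a histone-binding protein, 0.40, 0.50, 0.53 and 0.24. Among small subunit factors the kinase RIOK1 had 0.81 (adjusted p = 0.0687), 0.57, 0.69 and 0.49, and WDR43, a processome protein, 0.90 (adjusted p = 0.123), 0.40, 0.68 and 0.41. With replicate numbers as a block, WDR43 (0.92, adjusted p = 0.0126) and RIOK1 (0.86, adjusted p = 0.0196) were called in KO esiCT, so that 3 genes rose there in place of 1. The block with the offset for GC content and mRNA length called WDR43 in KO esiCT (1.13, edgeR adjusted p = 3.74e-05), KO esiHDAC4 (0.90, adjusted p = 0.000338) and with #11 (0.60, adjusted p = 0.0111). It called RIOK1 in KO esiCT (0.97, adjusted p = 0.00838) and KO esiHDAC4 (0.82, adjusted p = 0.0234), and neither gene in WT. The lowest mean over the 4 responses was that of UTP20 (-0.64, -0.95, -0.48 and -1.18), whose SE was 0.87 to 0.94.

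Compound #11 was compared with esiCT alone in KO cells. No gene of the 46 was called untreated or with OXPT by edgeR or by DESeq2, where 0.51% and 0.121% of all genes were called by edgeR. At an unadjusted p under 0.05 there were 3 untreated beside 13.8% of all genes, and 5 with OXPT beside 10.2%. The median log2 fold change was -0.20 untreated and -0.23 with OXPT (all genes, 0.00 and -0.01), and 38 and 34 of the 46 genes lay below zero. With no count filter, edgeR called UTP20 (-1.64, adjusted p = 0.00131) and DDX21 (-0.94, adjusted p = 0.0348) lower untreated. With OXPT it then called UTP20 (-2.11, adjusted p = 1.96e-05), DDX21 (-1.43, adjusted p = 7.99e-05) and HEATR1 (-1.45, adjusted p = 0.002) lower. How many of all genes were called without the filter is not given, so these calls stand without a background. With the count minimum and untreated, the highest value was that of RRP12 (0.61 ± 0.37) and the lowest that of UTP20 (-1.55 ± 0.90). With OXPT they were BOP1 (0.54 ± 0.26) and UTP20 (-2.09 ± 0.95, unadjusted p = 0.0383, edgeR adjusted p = 0.457). POLR1E had the smallest unadjusted p with OXPT, at -0.57 ± 0.19 (unadjusted p = 0.00666, edgeR adjusted p = 0.286).

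UTP20 measured 22.6, 29 and 2.77 CPM in untreated KO esiCT and 6.81, 4.15 and 7.61 with #11; with OXPT the values were 10.6, 21.4 and 2.62 against 3.76, 2.32 and 2.08. HEATR1 measured 36.8, 52.5 and 10.7 against 17.5, 8.58 and 24.6, and with OXPT 41.8, 44.8 and 1.31 against 12.9, 10.2 and 10.2. DDX21, an RNA helicase that senses polymerase activity, measured 286, 347 and 142 with OXPT in KO esiCT and 128, 87.8 and 75.1 with #11. In each of these the libraries with #11 lay below esiCT replicates 1 and 2, and esiCT replicate 3 lay among or below them, except that of DDX21 (142), which lay above. GNL3 (nucleostemin) had the same order, 185, 196 and 74.9 in untreated KO esiCT against 97, 79.9 and 109. HEATR1, DDX21, DDX10 and GNL3 were picked for description after their values were seen.

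Replicate number 3 of the esiRNA and WT groups stood apart in a way that moved with the composition of the mRNA. The deviation of number 3 from its group mean, averaged over these 6 groups, was -1.92 for HEATR1, -1.61 for UTP20 and -1.06 for DDX10 on the log2 CPM scale. Its median was -0.62 over the 17 genes with a GC content under 45%, -0.11 over the 17 genes with 45% to 55% and -0.02 over the 12 genes above 55%. The pattern was not particular to these genes. Over 11263 tested genes, Spearman's rho of the deviation of number 3 with GC content was 0.35 to 0.65 in the 6 groups. With mRNA length it was -0.52 to -0.21. Across the 46 genes, which share their libraries, the rho of the mean deviation was 0.66 with GC content and -0.44 with coding length. For numbers 1 and 2 the rho with GC content was -0.71 and -0.58. In the groups with #11 the rho with GC content was 0.22, 0.77 and -0.73 for numbers 1, 2 and 3. Deviations of the 3 libraries of a group cancel out by construction, so the rho values of the 3 numbers are not independent. The fold changes themselves moved with GC content by a rho of 0.09 in KO esiCT, 0.41 in WT, 0.31 in KO esiHDAC4 and 0.49 with #11 for the OXPT responses, and of 0.05 and 0.41 for #11 against esiCT untreated and with OXPT.

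Leaving out replicate number 3 in every group was a setting chosen after seeing the data. Number 3 moved with GC content in opposite directions in the esiRNA and WT groups (rho 0.66) and with #11 (rho -0.73). The setting therefore cannot tell a difference with #11 from one that goes with GC content. It called 10 of the 46 genes for #11 untreated (9 lower) and 12 with OXPT (11 lower). Of all genes it called 14.5% and 11.5%. UTP20 then stood at -2.24 (edgeR adjusted p = 0.0104) and -2.43 (adjusted p = 0.0136), HEATR1 at -1.78 (0.0207) and -1.95 (0.0191), DDX21 at -1.34 (0.00789) and -1.59 (0.00573) and GNL3 at -1.10 (0.000658) and -1.12 (0.00194). With the replicate block and an offset for GC content and mRNA length, 1 gene was called untreated (TSR1, -0.64) and 3 with OXPT (DDX21, -1.31; WDR43, -0.66; POLR1E, -0.59). The share of all genes called under this offset is not given, so these counts stand without a background. The part that GC content and number 3 have in the lower values with #11 was not tested beyond these settings.

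**Figure D4:**
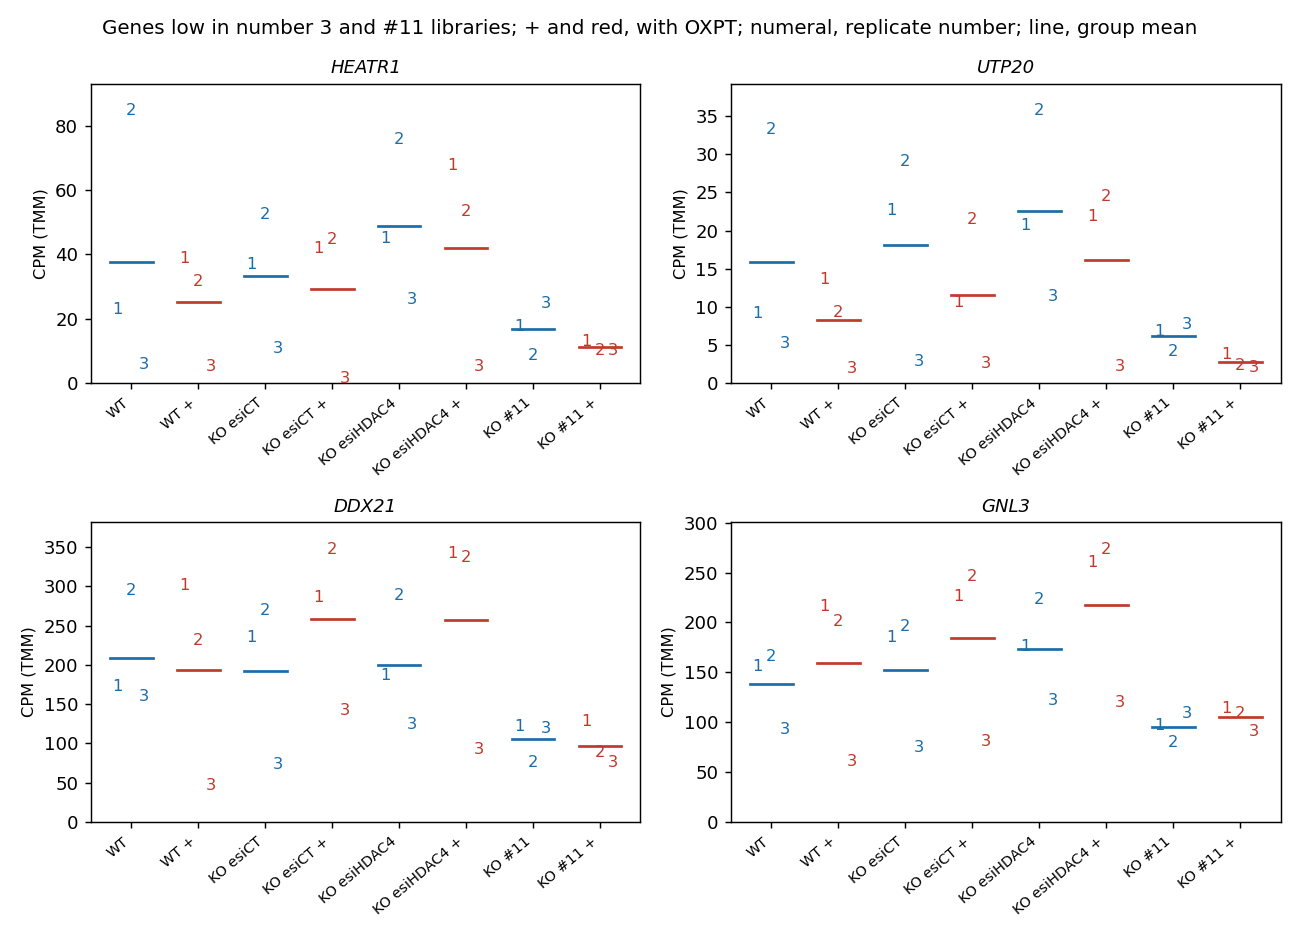
CPM (TMM) of HEATR1, UTP20, DDX21 and GNL3 in the 24 libraries, by group; red groups marked + received OXPT, numerals are replicate numbers and lines group means of 3. Replicate 3 is the lowest of its group in all WT and esiRNA groups, for HEATR1 with OXPT in KO esiCT 1.31 against 41.8 and 44.8, and the 6 libraries with #11 reach at most 24.6 for HEATR1 and 7.61 for UTP20.

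**Figure D5:**
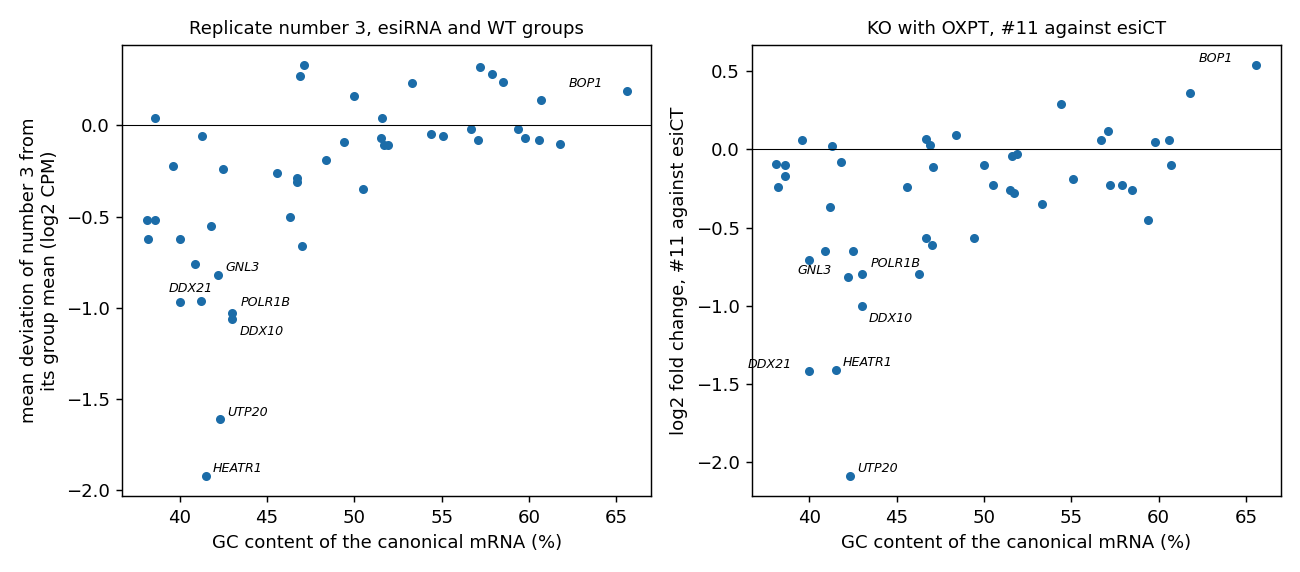
GC content of the canonical mRNA (%) against the mean deviation of replicate number 3 from its group mean in the esiRNA and WT groups (left, log2 CPM) and against the log2 fold change of #11 against esiCT with OXPT (right), a point per gene for 46 genes. The lowest points in both panels lie between 40% and 45% GC, with UTP20 at -1.61 and -2.09, and BOP1, with 65.6% GC, is above zero in both.

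Silencing of HDAC4 in KO cells was compared with esiCT. None of the 46 genes was called by edgeR or DESeq2 untreated or with OXPT, where edgeR called 0.00809% and 0% of all genes; at an unadjusted p under 0.05 there were 2 and 1 of the 46, beside 3.19% and 3.08% of all genes. RIOK1 was the lowest in both states, at -0.70 ± 0.28 untreated (unadjusted p = 0.0221, edgeR adjusted p = 1) and -0.82 ± 0.28 with OXPT (unadjusted p = 0.00888, adjusted p = 1). It measured 53.7, 59.7 and 32.9 CPM against 24.8, 40.2 and 25.2 untreated, which overlap, and 69.8, 94.5 and 91.9 against 45.4, 58.2 and 41.9 with OXPT, which do not. RRP9, a U3 snoRNP protein, had -0.68 ± 0.24 untreated (unadjusted p = 0.0112). HEATR1 was the highest in both, at 0.55 ± 0.98 and 0.52 ± 0.98. The medians were 0.05 and 0.12.

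KO esiCT cells were compared with WT cells, with the reserve that the esiRNA of the WT libraries is not settled. No gene of the 46 was called by edgeR or DESeq2, against 0.291% of all genes untreated and 0.138% with OXPT, and at an unadjusted p under 0.05 there were 1 and 4, beside 5.74% and 5.4% of all genes. Untreated, RRP12 was the lowest (-0.98 ± 0.37, edgeR adjusted p = 0.594), with WT replicate 3 at 268 CPM, and LTV1, an export factor of the small subunit, the highest (0.42 ± 0.36). With OXPT, NOC2L was the lowest (-0.67 ± 0.30) and UTP20 the highest (0.49 ± 0.89). NOB1, the nuclease that cuts the last small subunit rRNA precursor, had -0.58 ± 0.17 with OXPT (unadjusted p = 0.00311, edgeR adjusted p = 0.637); it measured 96.6, 91 and 64.3 CPM in KO esiCT and 120, 122 and 134 in WT. BYSL had -0.48 ± 0.21 there (edgeR adjusted p = 0.864).

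Whether the OXPT response itself differed was tested by interaction terms. None of the 46 genes was called by edgeR or DESeq2 for genotype, silencing or #11, and neither was any other gene by edgeR (0%, 0% and 0%); at an unadjusted p under 0.05 there were 1, 0 and 2 of the 46, beside 1.63%, 0.154% and 6.98% of all genes. For genotype the highest value was that of DKC1 (0.59 ± 0.51) and the lowest that of NOC2L (-0.73 ± 0.42). For silencing they were NOC2L (0.46 ± 0.42) and RRP1B (-0.48 ± 0.45), and for #11 BOP1 (1.08 ± 0.37) and RRP12 (-0.87 ± 0.52). TAF1D was the other gene under 0.05 for #11 (-0.60 ± 0.24, unadjusted p = 0.0191, edgeR adjusted p = 0.585).

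A wider list of 99 further genes of the same pathways, of which 97 were tested, gave the surroundings of these results. With OXPT 7 rose and none fell in KO esiCT, 7 rose and 1 fell in WT, 7 rose and none fell in KO esiHDAC4, and 5 rose and 1 fell with #11; the medians were 0.24, 0.19, 0.32 and 0.24. The shares called in either direction, 7.22%, 8.25%, 7.22% and 6.19%, lay below those of all genes tested, 11.3%, 10.7%, 12% and 9.51%. By direction, the 7.22% in KO esiCT and in KO esiHDAC4 were all higher, beside 6.23% and 6.44% of all genes called higher. In WT 7 of 97 rose beside 5.1% of all genes, and with #11 5 of 97 beside 5.94%. No test was run on these shares. Of 10 further polymerase I genes, 3 rose in KO esiCT, among them POLR1H (1.25 ± 0.36, edgeR adjusted p = 0.0266), and POLR2H, a subunit that RNA polymerases I, II and III share, rose in 3 responses (1.07 ± 0.29 in KO esiCT, 0.93 in KO esiHDAC4 and 1.18 with #11). Among 35 tested small subunit genes 4, 4, 3 and 3 rose and none fell. IMP3, a U3 snoRNP protein, and RCL1, a processome endonuclease, rose in all 4 responses. IMP3 had log2 fold changes of 1.13, 0.91, 1.02 and 1.69 and RCL1 0.98, 0.75, 0.92 and 0.68, and UTP6 rose in the esiRNA and WT groups (0.81, 0.77 and 0.89). Of 39 large subunit genes 0, 3, 2 and 1 rose, with SURF6 in 3 of the responses (0.75 in WT, 0.79 in KO esiHDAC4 and 0.70 with #11). Of 13 tested exosome genes, EXOSC5 rose in KO esiHDAC4 (0.97 ± 0.31), and EXOSC8, a ring subunit, fell in WT (-0.84 ± 0.24) and with #11 (-1.24 ± 0.24, edgeR adjusted p = 0.00221). None of the 97 was called in the other 9 comparisons.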

How the data were processed

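The authors deposited raw counts per gene for each of 36 libraries, in the column layout of STAR gene counts with an unstranded, a forward and a reverse column. The submitters' processing notes name Trimmomatic 0.39, STAR 2.7.11a and hg38; the annotation is not given in the sources used here, and IDs were matched without version to GENCODE 44 (62639 of 62757). The paper's methods describe salmon and DESeq2 on Ensembl 100, so these counts are not the values tested there. Reverse and forward totals differed by a ratio of 1.00 to 1.02, so the reads carry no strand; unstranded counts were used, of which 10.6% to 12.2% of reads were ambiguous between genes and not counted. Summary rows without a gene were left out.

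The 24 libraries that labels place in 8 groups were fitted in 1 model in R 4.3.3 with edgeR 4.0.16 (TMM, quasi-likelihood F test, 1 coefficient per group, no covariates), with 10 pairwise comparisons and 3 interactions. The count minimum of 64, adjusted p under 0.05 and fold change over 1.5 follow the paper's methods. SE was taken as the log2 fold change, without its sign, divided by √F, and is approximate. A further 12 WT libraries, whose labels give opposite OXPT states, entered no comparison. The script was tested on simulated data. The genes and lists were chosen with earlier results of these data known. Values are given for the polymerase I machinery, NCL, NPM1, FBL and DKC1, for every gene called in a pairwise comparison, and for the highest and lowest gene of each other comparison; other genes were named after their values were seen. Replicate numbers pair the libraries in 8 of 10 comparisons (correlation of deviations 0.11 to 0.79, from the data alone), not in those of #11 against esiCT. Alternatives were other normalization, filters, strand column, DESeq2 1.42.0, fits of the compared groups alone, the replicate block, the adjusted p alone, and each library left out.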

Additional observations from a re-analysis of the deposited data

How the results depend on the processing

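Of 170 counts of called genes and medians recomputed under alternatives other than leaving out a library, 147 stayed within the limits set for calling them unchanged and 23 moved. A change of direction was not scored for these counts and medians. Among 72 single-gene results recomputed, 0 changed sign with a call on either side. Of the 2448 single-gene alternatives in all, 57 changed sign between 2 values that were not called. Counts below are of the 46 genes. Shares of all genes called under each setting are not given beside them, so they stand without a background. KO esiCT with OXPT (1 gene) gave 2 with DESeq2, 0 with reverse-strand counts, 0 when only the compared groups were fitted and 3 with the replicate block; the block changed the call of POLR1C in WT as well, and no other count by over 1.5 times. WT (2) gave 0 with only the compared groups. KO esiHDAC4 (3) gave 1 with no count filter, 1 with a mean of 64 in every group and 1 with reverse-strand counts. The response with #11 (2, both higher) gave 1 under each of the same settings, which with no count filter was UTP20, lower, and 5 with only the compared groups, of which RRN3, DDX10 and UTP20 were lower. With no count filter the 1 gene in KO esiCT was WDR43, not POLR1C. #11 against esiCT (0 and 0) gave 2 untreated (UTP20 and DDX21) and 3 with OXPT (with HEATR1) with no count filter, all lower. Chosen after seeing the data, leaving out number 3 gave 4 in KO esiCT, 5 in WT, 10 and 12 for #11 untreated and with OXPT, and 1 for the interaction with #11; the replicate block with the GC and length offset gave 6 in KO esiCT, 7 in KO esiHDAC4, and 1 and 3 for #11. The causes were not tested. With each of the 24 libraries left out, counts ranged from 0 to 2 in KO esiCT, 1 to 4 in WT, 0 to 4 in KO esiHDAC4 and 0 to 2 with #11, and stayed at 0 in the other comparisons. Medians ranged from 0 to 0.32, 0 to 0.19, 0.11 to 0.37 and -0.01 to 0.17 in the same order. A gene such as UTP20, with 22 to 638 counts per library, had an SE of 0.87 to 0.94 in the OXPT responses, and its values of -0.95 in WT and -1.18 with #11 did not pass.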

Other observations

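The 12 WT libraries whose labels give opposite OXPT states were compared with nothing. Across them POLR1C ranged from 33 to 95.2 CPM (median 61.8), BYSL from 44.6 to 144 (median 73.6), RRP12 from 73.3 to 350 (median 164) and BOP1 from 129 to 368 (median 254). UTP20 ranged from 0.891 to 31.8 CPM (median 1.74) and HEATR1 from 1.38 to 89.8 (median 4.34). NPM1, the most abundant of the genes per length in untreated KO esiCT cells, ranged from 1190 to 2260 CPM (median 1880).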
